A study of Homo sapiens with 6 samples.

Results

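Vascular endothelial growth factors (VEGFs) and angiopoietins are secreted ligands that act through receptor tyrosine kinases, and 10 genes of these systems were followed through the first days of a chemical protocol applied to human BJ fibroblasts. The genes were VEGFA, VEGFB, VEGFC and PGF (ligands of VEGF receptors), KDR and FLT1 (VEGF receptors), ANGPT1 and ANGPT2 (angiopoietins), TEK (their receptor) and ANGPTL4 (an angiopoietin-like protein). The set was put together with earlier results of these data known. Its genes were then found by gene name, with no threshold on their values, and each name matched 1 of the 60843 genes in the deposited table. BJ is an established line of normal foreskin fibroblasts, here without genetic change. Day 0 cells (2 libraries) had been grown on poly-D-lysine in DMEM with serum and received no forskolin. Day 2 cells (2 libraries) had spent those days in a neuronal induction medium with 10 µM forskolin, a plant compound that switches on adenylyl cyclase, the enzyme that makes cAMP. Day 5 cells (2 libraries) had been changed at day 2 to a neuronal maturation medium, again with 10 µM forskolin. The protocol removes forskolin on day 5, and the labels do not say whether the day 5 cells were collected before or after that change. Medium, drug and time therefore changed together after day 0, and their parts cannot be told apart. The series title names the product of this treatment FiNs.

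VEGFA binds both KDR and FLT1, whereas PGF (placental growth factor) and VEGFB bind FLT1 and not KDR. VEGFC binds FLT4 and, after proteolytic processing, KDR. KDR carries most of the mitogenic VEGF signal in endothelial cells, and FLT1 binds ligand tightly but signals weakly and also exists as a secreted, ligand-trapping form. ANGPT1 activates the receptor TEK (TIE2), ANGPT2 can activate or block it depending on context, and ANGPTL4 does not bind TEK but inhibits lipoprotein lipase. Fibroblasts are a known source of VEGFA and ANGPT1, and the receptors are best known from endothelium.

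The libraries held 17605858 to 27953926 expected counts, with the lowest totals at day 5. At these depths 3 counts in a library corresponded to 0.103 to 0.180 CPM (the level unit used throughout, scaled between libraries by TMM factors), the limit that a count of 0 allows, from counting error only. The labels do not state that a day's libraries were separate cultures, so p-values rest on a spread that may be technical. All 12 fibroblast markers examined passed the count filter, and their summed level lay between 16255 and 31395 CPM in every library. That sum hides opposite changes, with 6 markers called higher and 6 lower at day 5 against day 0. Mean CPM went from 5049 at day 0 to 14314 at day 5 for COL1A2, and from 4847 to 1465 for VIM. The labels call the day 2 and day 5 cells induced neuron cells. Of 10 neuron markers, STMN2 and ELAVL4 were at 0 in every library. TUBB3 and MAP2 were 2.59-fold and 15.1-fold lower at day 5 than at day 0, and the synaptic gene SNAP25 was 3.11-fold higher. SYN1, another synaptic gene, was 1.76-fold higher at day 2 than at day 0 (edgeR adjusted p = 0.0123). At day 5 against day 0 SYN1 was not called (log2 -0.13, edgeR adjusted p = 0.713). For MAP2 the log2 value of -3.92 became -3.31 without day 5 replicate 1 and -5.16 without day 5 replicate 2. Differences between days were widespread among the 16327 genes tested: at day 2 against day 0, 33.4% of genes were called higher and 33.4% lower (edgeR adjusted p under 0.05). At day 5 against day 0 these shares were 35.8% and 34.1%, and at day 5 against day 2 they were 32.1% and 33.7%. Libraries of the days compared did not overlap for 82.7% of genes between day 2 and day 0, for 84.5% between day 5 and day 0, and for 82.4% between day 5 and day 2, so that a lack of overlap was common. Without TMM factors the median gene shifted by about -0.18 log2 at day 2 against day 0, where the shares called became 26.0% higher and 42.3% lower, and at day 5 against day 0 they became 27.0% and 42.3%. In bulk RNA, a change in the number of cells that express a gene and a change in RNA per cell cannot be told apart.

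The promoter sequences of PGF, KDR, FLT1 and ANGPTL4, each of which changed more than 3-fold in at least 1 comparison, are shown first, so that the values can be read beside them. RefSeq windows on GRCh38.p14 were matched for 7 of the 10 genes, 9 windows in all, since PGF and TEK each had 2 starts. Each sequence is the 250 bases before the RefSeq transcription start, on the gene's strand, 5′ to 3′. Capitals mark matches, on either strand, to any of 7 motifs: TGACGTCA (the full cAMP response element), TGACG (its core, which also lies inside the full element), ACGTG and GCGTG (cores of the hypoxia response element), GGGCGG (GC box), AAAGGTCA (the NR4A monomer site) and TATAAA. PGF, at the first of its 2 starts, lies on the minus strand at chr14:74955765-74956014, KDR on the minus strand at chr4:55125596-55125845, FLT1 on the minus strand at chr13:28495129-28495378, and ANGPTL4 on the plus strand at chr19:8363905-8364154.
PGF: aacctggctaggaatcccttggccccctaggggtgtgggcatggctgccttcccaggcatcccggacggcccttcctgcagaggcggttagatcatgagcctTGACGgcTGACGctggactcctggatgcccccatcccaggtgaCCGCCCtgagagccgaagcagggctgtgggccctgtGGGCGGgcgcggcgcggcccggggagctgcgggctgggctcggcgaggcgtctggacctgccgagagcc
KDR: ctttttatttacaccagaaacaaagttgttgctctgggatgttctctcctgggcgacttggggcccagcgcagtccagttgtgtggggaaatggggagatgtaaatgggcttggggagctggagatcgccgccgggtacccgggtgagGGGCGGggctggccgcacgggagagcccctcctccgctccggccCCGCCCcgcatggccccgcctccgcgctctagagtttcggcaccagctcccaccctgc
FLT1: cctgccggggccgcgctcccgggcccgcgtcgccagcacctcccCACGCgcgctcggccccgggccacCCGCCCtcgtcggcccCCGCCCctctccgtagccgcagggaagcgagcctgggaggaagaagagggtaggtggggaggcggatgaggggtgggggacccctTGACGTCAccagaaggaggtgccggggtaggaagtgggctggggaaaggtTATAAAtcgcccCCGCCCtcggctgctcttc
ANGPTL4: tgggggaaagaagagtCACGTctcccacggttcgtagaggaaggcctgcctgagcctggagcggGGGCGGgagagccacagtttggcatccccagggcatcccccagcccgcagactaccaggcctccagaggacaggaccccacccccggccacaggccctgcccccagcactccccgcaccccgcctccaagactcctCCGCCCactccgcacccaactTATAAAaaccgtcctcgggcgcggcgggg

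The window before FLT1 held 1 full TGACGTCA, from 81 to 74 bases before the start, a motif present in 1.65% of all 35116 promoter windows. It also held 1 GCGTG (32.2% of windows), 3 GC boxes and 1 TATAAA. The PGF window shown held 2 GC boxes and 2 TGACG matches, from 148 to 144 and from 141 to 137 bases before the start, and 21.2% of windows held at least 1 TGACG. The window of the other PGF start, which overlaps it at chr14:74955598-74955847, held no TGACG, 1 GCGTG and 3 GC boxes. The KDR window held 2 GC boxes (42.6% of windows) and no other motif searched. In the ANGPTL4 window an ACGTG match lay 234 to 230 bases before the start (18.5% of windows), beside 2 GC boxes, and TATAAA lay 29 to 24 bases before it (10.7%). Of the windows not shown, that of VEGFC held 1 TGACG, from 8 to 4 bases before the start, 1 GCGTG and 2 GC boxes. The VEGFB window held 1 GCGTG and 6 GC boxes, and the 2 TEK windows held no motif searched. None of the 9 member windows searched held AAAGGTCA, which 1.05% of all windows held. These are letter matches in a short window and say nothing of binding.

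Of the 10 genes, 9 had enough counts to be tested. At day 2 against day 0, 6 were called higher and 2 lower, or 5 and 3 without TMM factors. At day 5 against day 0, 4 were higher and 4 lower, or 3 and 5 without TMM factors. At day 5 against day 2, 3 were higher and 3 lower under either scaling. The 8, 8 and 6 genes called in these comparisons stand beside 66.8%, 69.9% and 65.8% of all genes called in either direction, so a call as such says little here and the sizes carry more information. Changes above 2-fold, tested as such with edgeR's glmTreat, were called higher for PGF, VEGFA and ANGPTL4 and lower for FLT1 and VEGFC at day 2 against day 0, where 6.99% and 5.54% of all genes were so called. At day 5 against day 0 they were called higher for PGF, VEGFA and KDR and lower for FLT1 and VEGFC (9.74% and 10.3% of all genes). At day 5 against day 2 they were called higher for PGF, VEGFA and KDR and lower for ANGPTL4 (6.41% and 7.96%).

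**Figure D1:**
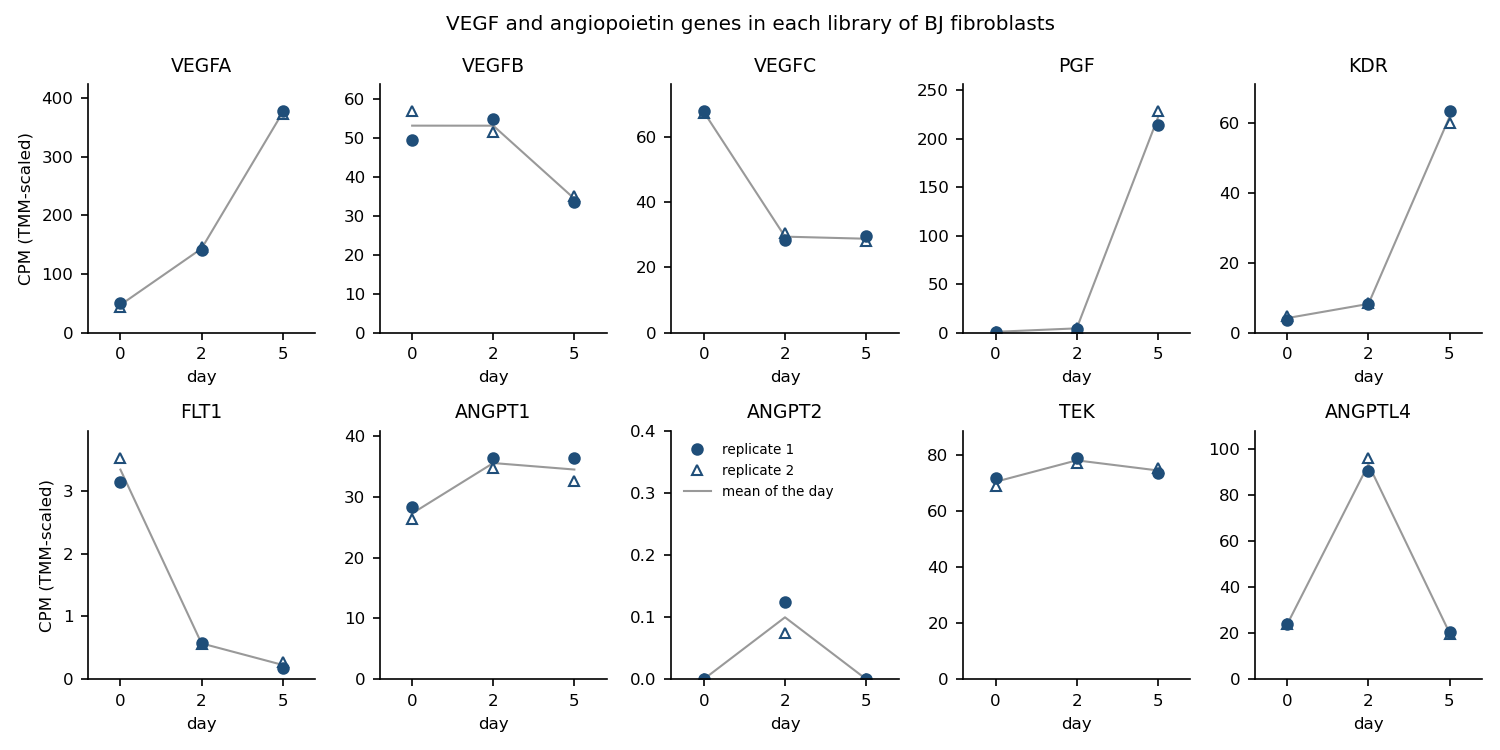
Level of each of the 10 genes in CPM (TMM-scaled, linear axes from 0, a scale of its own per panel) at day 0, 2 and 5; filled circles and open triangles are the 2 replicate libraries and the line joins the day means. PGF reached 214 and 228 CPM at day 5, ANGPTL4 was highest at day 2 at 90.3 and 96.2 CPM, and TEK stayed between 68.9 and 79.0 CPM.

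Among the ligands, PGF (ENSG00000119630, chromosome 14 at 74941834 to 74955784 of GRCh38) changed most. It had 18 and 25 counts in the day 0 libraries, 93 and 130 counts in those of day 2 and 3577 and 4185 counts in those of day 5. On the CPM scale this was 0.710 and 0.859 (day 0), 3.87 and 4.83 (day 2), and 214 and 228 (day 5). The libraries of the 3 days did not overlap, and most of the rise fell between day 2 and day 5. PGF was 279-fold higher at day 5 than at day 0 (8.12 ± 0.10 on the log2 scale, edgeR adjusted p = 1.9e-20), and 41 of the 16327 tested genes had a larger log2 fold change. It was 5.52-fold higher at day 2 than at day 0 (log2 2.46 ± 0.21, edgeR adjusted p = 1.7e-08) and 50.5-fold higher at day 5 than at day 2 (log2 5.66 ± 0.08, edgeR adjusted p = 1.2e-19).

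VEGFA (ENSG00000112715, chromosome 6 at 43770184 to 43786487), the principal ligand of KDR, rose at both steps. Its level was 50.2 and 44.3 CPM (day 0), 141 and 146 CPM (day 2), and 378 and 373 CPM (day 5), with no overlap between days. The log2 fold change was 1.61 ± 0.05 at day 2 against day 0 (edgeR adjusted p = 6.2e-15) and 1.39 ± 0.04 at day 5 against day 2 (edgeR adjusted p = 3.6e-15). The steps were thus of similar size on the log2 scale, unlike those of PGF. Over the whole protocol VEGFA was 7.97-fold higher. An antisense transcript whose exons overlap VEGFA, AL136131.3, had at most 0.539 CPM in any library, and 5 of the 6 VEGFA counts were fractional, as estimated counts can be where reads match more than 1 feature.

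VEGFC and VEGFB moved the other way, at different times. VEGFC (ENSG00000150630, chromosome 4 at 176683538 to 176792727), best known as the growth factor of lymphatic vessels, had 68.0 and 67.3 CPM (day 0), 28.3 and 30.5 CPM (day 2), and 29.5 and 28.1 CPM (day 5). It fell by day 2 (log2 fold change -1.20 ± 0.06 against day 0, edgeR adjusted p = 7.2e-12), and the libraries of day 5 and day 2 overlapped (log2 -0.03 ± 0.07, edgeR adjusted p = 0.671). VEGFB (ENSG00000173511, chromosome 11 at 64234538 to 64238793), a ligand of FLT1, had 49.4 and 56.9 CPM (day 0), 54.7 and 51.5 CPM (day 2), and 33.6 and 35.2 CPM (day 5). Day 2 and day 0 overlapped (0.00 ± 0.06 on the log2 scale, edgeR adjusted p = 0.959), although without TMM factors the value was -0.19 and was called (edgeR adjusted p = 0.0148, range over the alternatives 0.0148 to 1). VEGFB was lower at day 5, with a log2 difference of -0.63 ± 0.07 both against day 2 (edgeR adjusted p = 8.1e-07) and against day 0 (edgeR adjusted p = 5.8e-07).

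**Figure D2:**
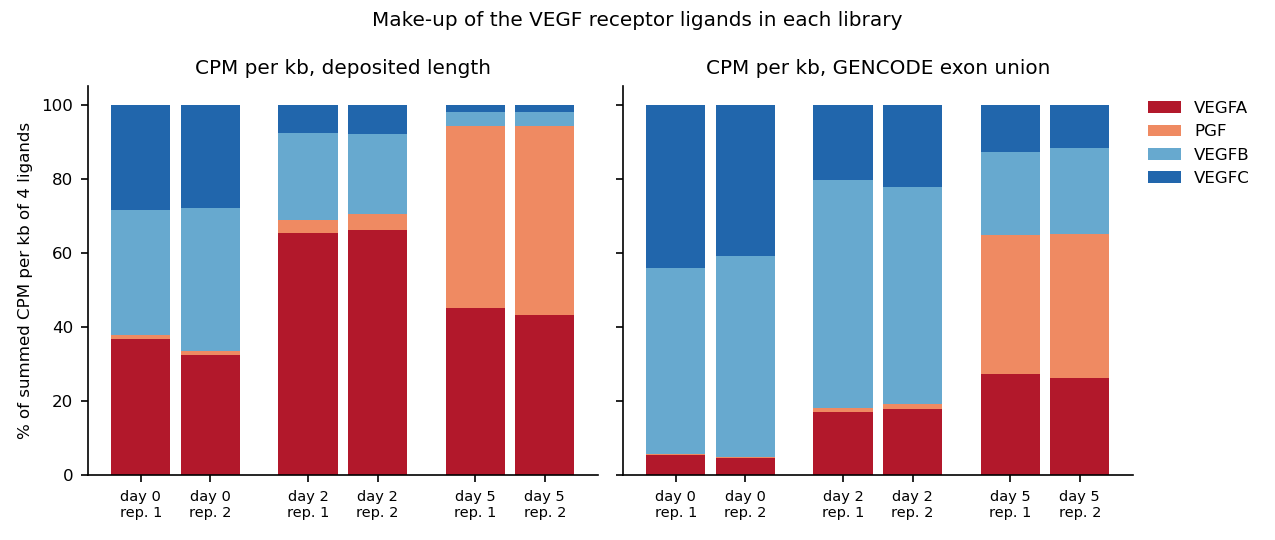
Share of each ligand gene in the summed CPM per kilobase of VEGFA, PGF, VEGFB and VEGFC, 1 bar per library, with the gene length deposited in the table (left) and the exon union of GENCODE 29 (right). PGF took 49.3% and 51.1% at day 5 with the deposited lengths and 37.4% and 38.9% with the exon unions, against at most 4.23% in the day 0 and day 2 libraries under either length.

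Levels of different ligands were compared per kilobase, and the choice of length mattered. For VEGFA the deposited length was 1286 bases and the GENCODE 29 exon union 14431 bases, and for PGF 666 and 5962 bases, so only orders that hold under both lengths are given. At day 0 VEGFB exceeded VEGFC in mean CPM per kilobase (38.5 and 29.9 with deposited lengths, 34.4 and 28.0 with exon unions), and PGF was the lowest ligand. At day 5 PGF was the highest of all 10 genes, at 332 ± 14.8 CPM per kilobase with deposited lengths and 37.1 ± 1.65 with exon unions (SD, n = 2). VEGFA was then in the next place, at 292 ± 2.89 and 26.0 ± 0.257 CPM per kilobase (SD, n = 2), and VEGFC was the lowest ligand. The place of VEGFA at day 0 depended on the length used, since it stood close to VEGFB with the deposited lengths and below VEGFC with the exon unions. Without any length, the summed CPM of the 4 ligands was 168 and 169 (day 0), 228 and 233 (day 2), and 656 and 665 (day 5).

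The 2 VEGF receptor genes moved in opposite directions. KDR (ENSG00000128052, chromosome 4 at 55078259 to 55125595) had 3.71 and 4.60 CPM (day 0), 8.07 and 8.33 CPM (day 2), and 63.3 and 60.1 CPM (day 5). Its days did not overlap. KDR was 1.96-fold higher at day 2 than at day 0 (0.97 ± 0.13 on the log2 scale, edgeR adjusted p = 3.3e-06) and 7.51-fold higher at day 5 than at day 2 (log2 2.91 ± 0.09, edgeR adjusted p = 2.3e-14), which made 14.8-fold over the protocol. A rise beyond 2-fold was not called for it at day 2.

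FLT1 (ENSG00000102755, chromosome 13 at 28300344 to 28495145) was low throughout. It had 80 and 103 counts in the day 0 libraries, 14 and 15 counts in those of day 2 and 3 and 5 counts in those of day 5. In CPM these were 3.15 and 3.54 (day 0), 0.583 and 0.558 (day 2), and 0.180 and 0.273 (day 5). Both later days lay below day 0 without overlap. FLT1 was 5.83-fold lower at day 2 than at day 0 (-2.54 ± 0.34 on the log2 scale, edgeR adjusted p = 3.9e-06) and 14.4-fold lower at day 5 than at day 0 (log2 -3.84 ± 0.42, edgeR adjusted p = 3.7e-07). At day 5 it stood near the level of 3 counts, and the difference from day 2 was barely called (log2 -1.30 ± 0.53, edgeR adjusted p = 0.0392). That call was lost with DESeq2 (adjusted p = 0.0984), limma-voom (adjusted p = 0.103), the replicate block (edgeR adjusted p = 0.0548) and after removal of any single library of the 6, and over the alternatives the adjusted p ran between 0.0362 and 0.541. Counts per gene do not separate the full-length from the secreted form of FLT1.

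Set against each other within a library, KDR made up 54.0% and 56.5% of the counts of both receptor genes at day 0 (exact Clopper-Pearson 95% intervals 46.3 to 61.6% and 50 to 62.9%). It made up 93.3% and 93.7% at day 2 (89.0 to 96.3% and 89.9 to 96.4%) and 99.7% and 99.5% at day 5 (99.2 to 99.9% and 98.9 to 99.9%). These intervals cover counting error within a library only, not the spread between libraries, and the shares are of reads, without regard to gene length. Both day 5 libraries lay above both day 2 libraries, and these above both day 0 libraries. Per kilobase, the ratio of KDR to FLT1 was 1.44 and 1.59 (day 0), 16.9 and 18.2 (day 2), and 430 and 269 (day 5) with the deposited lengths. With the exon unions it was 2.25 and 2.49 (day 0), 26.5 and 28.6 (day 2), and 675 and 422 (day 5). As RNA, the receptor bound by PGF and VEGFB was thus lower at day 5, when PGF was highest, than at day 0. Whether FLT1 was also lower at day 5 than at day 2 is not settled, since that call rested on few counts and was lost under several alternatives.

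**Figure D3:**
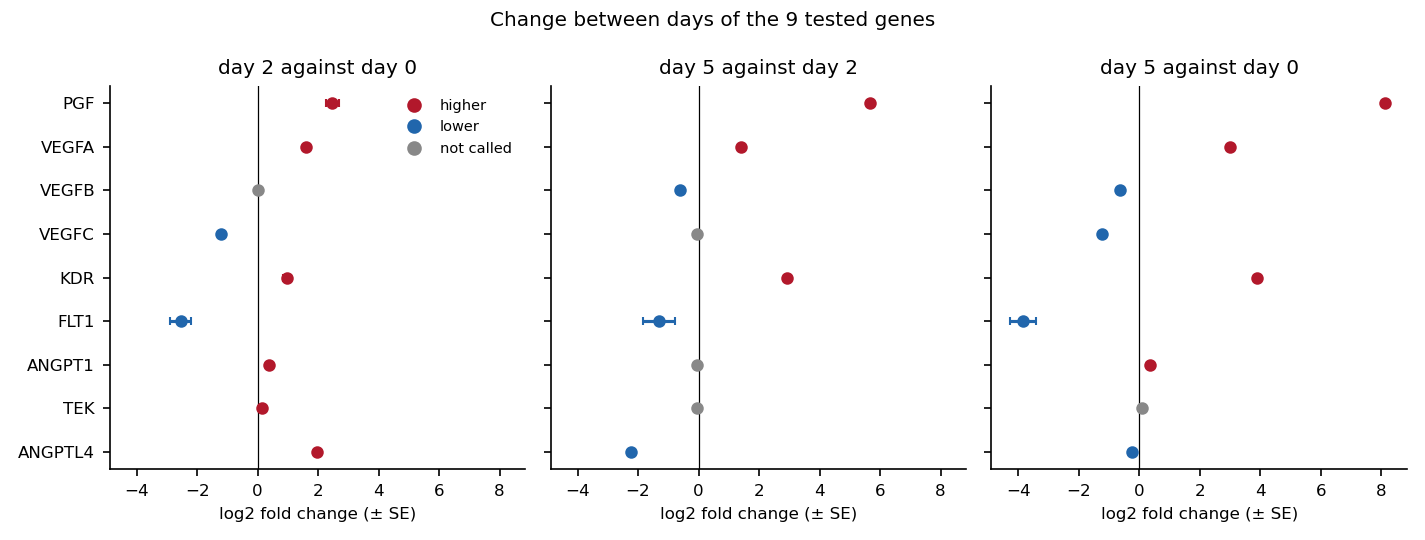
Log2 fold change (later minus earlier day) of the 9 tested genes in the 3 comparisons, with bars for the standard error, red for called higher, blue for called lower and grey for not called by edgeR. PGF lies at 8.12 and FLT1 at -3.84 at day 5 against day 0, and ANGPTL4 lies at 1.96 at day 2 against day 0 and at -2.22 at day 5 against day 2.

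In the angiopoietin system the receptor was the more abundant RNA and varied little. TEK (ENSG00000120156, chromosome 9 at 27109141 to 27230175) had 71.9 and 68.9 CPM (day 0), 79.0 and 77.0 CPM (day 2), and 73.4 and 75.4 CPM (day 5). Its log2 fold change was 0.15 ± 0.04 at day 2 against day 0 (edgeR adjusted p = 0.00755) and 0.08 ± 0.05 at day 5 against day 0 (edgeR adjusted p = 0.133). Under library totals the values were -0.03 (adjusted p = 0.506) and -0.12 (adjusted p = 0.0287), and the day 2 call was also lost with DESeq2 (adjusted p = 0.0519), without day 0 replicate 2 (adjusted p = 0.102) and without day 2 replicate 1 (adjusted p = 0.0593), over a range of 0.00604 to 1. No direction can be given for TEK. Per kilobase it stood above KDR in every library, by 24.2 and 18.7 times (day 0), 12.2 and 11.5 times (day 2), and 1.44 and 1.57 times (day 5) with the deposited lengths.

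ANGPT1 (ENSG00000154188, chromosome 8 at 107249482 to 107498055), the activating ligand of TEK, had 28.3 and 26.3 CPM (day 0), 36.4 and 34.8 CPM (day 2), and 36.5 and 32.6 CPM (day 5). Both later days lay above day 0, and they overlapped each other. The log2 fold change was 0.38 ± 0.07 at day 2 against day 0 (edgeR adjusted p = 0.00016) and 0.34 ± 0.08 at day 5 against day 0 (edgeR adjusted p = 0.00079). Without TMM factors the day 5 value was 0.13 and was not called (edgeR adjusted p = 0.132, range over the alternatives 0.00034 to 1). TEK exceeded ANGPT1 per kilobase in every library, by 1.82 to 2.37 times with the deposited lengths and 2.98 to 3.89 times with the exon unions.

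ANGPT2 (ENSG00000091879, chromosome 8 at 6499651 to 6563409), the angiopoietin that endothelial cells store and release, had no counts on day 0 or day 5 (0 in all 4 libraries) and 3 and 2 counts in the day 2 libraries. It was the gene that could not be tested. A count of 0 allows up to 0.180 CPM in the shallowest library. ANGPT2 shares exonic sequence with MCPH1 on the opposite strand, which had 9.07 to 14.0 CPM, and as no strand setting for the counting is given here, the origin of those 5 reads is uncertain.

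ANGPTL4 (ENSG00000167772, chromosome 19 at 8363289 to 8374373), a secreted inhibitor of lipoprotein lipase that responds to hypoxia and to lipid-sensing nuclear receptors, was high at day 2 alone. It had 24.0 and 23.8 CPM (day 0), 90.3 and 96.2 CPM (day 2), and 20.4 and 19.6 CPM (day 5). It was 3.90-fold higher at day 2 than at day 0 (1.96 ± 0.06 on the log2 scale, edgeR adjusted p = 6e-15) and 4.66-fold lower at day 5 than at day 2 (log2 -2.22 ± 0.06, edgeR adjusted p = 4.3e-15). At day 5 it stood slightly below day 0 (log2 -0.26 ± 0.07, edgeR adjusted p = 0.00541). An antisense gene with overlapping exons, RAB11B-AS1, had between 1.97 and 3.50 CPM in every library.

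The list of 14 further genes of these families held the VEGF co-receptors and other angiopoietin-like proteins, and 6 were tested. At day 2 against day 0 none was called higher and 3 lower (median log2 fold change -0.07, all genes 0.00). At day 5 against day 0, 4 were higher and 2 lower (median 2.04, all genes 0.04). The shares of all tested genes were 33.4% higher and 33.4% lower at day 2, and 35.8% and 34.1% at day 5. The co-receptor NRP1 had 45.2 and 45.1 CPM (day 0), 37.4 and 41.9 CPM (day 2), and 179 and 172 CPM (day 5) (day 5 against day 0, log2 1.96 ± 0.05, edgeR adjusted p = 6.1e-16). NRP2, which also binds VEGFC, had 75.3 and 77.9 CPM (day 0), 76.6 and 80.4 CPM (day 2), and 341 and 326 CPM (day 5) (log2 2.12 ± 0.04 against day 0, edgeR adjusted p = 3.8e-18). Both neuropilin genes were thus near their day 0 level at day 2 and about 4-fold above it at day 5, the interval in which most of the rise of KDR and PGF also fell. NRP1 was called slightly lower at day 2 (log2 -0.18 ± 0.06, edgeR adjusted p = 0.00899), a call that ended when replicate 1 of day 2 was left out (edgeR adjusted p = 0.15).

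VEGFD, a ligand related to VEGFC, had 0 and 4 counts in the day 0 libraries, 5 and 3 counts in those of day 2 and 44 and 89 counts in those of day 5. The day 5 libraries, at 2.64 and 4.86 CPM, differed from each other but lay well above the others (day 5 against day 0, log2 5.59 ± 0.67; edgeR adjusted p = 9.9e-07). The size of that change is uncertain, since the log2 value was 4.71 without day 0 replicate 1 and 9.38 without day 0 replicate 2, where day 0 holds no VEGFD count and the value is no bound. SVEP1, a large matrix protein reported to bind the orphan receptor TIE1, fell at both steps, with 437 and 443 CPM (day 0), 206 and 204 CPM (day 2), and 26.1 and 24.6 CPM (day 5). It was 17.4-fold lower at day 5 than at day 0 (log2 -4.12 ± 0.04, edgeR adjusted p = 8.4e-22). ANGPTL2, a secreted relative of the angiopoietins, was 1.72-fold lower at day 2 and 1.23-fold lower at day 5 than at day 0, and ANGPTL1 had 11 and 14 counts in the day 5 libraries, against 4 and 2 counts in those of day 0 (edgeR adjusted p = 0.00492). Leaving out replicate 2 of day 0 or of day 5 ended that call (edgeR adjusted p = 0.0797 and 0.0526). The lymphatic receptor FLT4 had at most 6 counts, TIE1 at most 2.31, ANGPT4 at most 2, ANGPTL5 at most 5 and ANGPTL6 at most 11.02 counts in a library. PTPRB, the phosphatase that restrains TEK in endothelium, and ANGPTL7 had 0 counts in all 6 libraries.

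Genes that share known inducers with VEGFA and ANGPTL4 were described through lists, and every fold given here for a list gene was called by edgeR in the comparison named. Of 25 tested hypoxia targets, 14 were higher and 9 lower at day 2 against day 0 (median log2 fold change 0.49), and 10 were higher and 13 lower at day 5 against day 0 (median -0.32), or 6 and 14 without TMM factors. ADM, the vasodilator peptide adrenomedullin, was 2.91-fold higher at day 2 and 4.86-fold lower at day 5 than at day 0, whereas the glucose transporter SLC2A1 was 7.91-fold and 6.94-fold lower and the glycolytic enzyme ENO1 3.21-fold and 2.44-fold lower. Over all tested genes 33.4% were higher and 33.4% lower at day 2 against day 0. At day 5 against day 0 these shares were 35.8% and 34.1%. The part of the hypoxia targets in the change of VEGFA was not tested. Of 11 tested genes of the HIF machinery, 5 were higher and 3 lower at day 2 (median 0.12; 4 and 5 without TMM factors) and 6 higher and 5 lower at day 5 (median 0.28). The HIF subunits HIF1A and EPAS1 were 5.14-fold and 3.87-fold higher at day 2 and 2.75-fold and 1.77-fold higher at day 5 than at day 0, and CITED2, an inhibitor of HIF1A, was 1.79-fold higher at day 2 and 4.90-fold lower at day 5. HIF activity is set largely at the protein level, which these RNA counts do not measure.

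**Figure D4:**
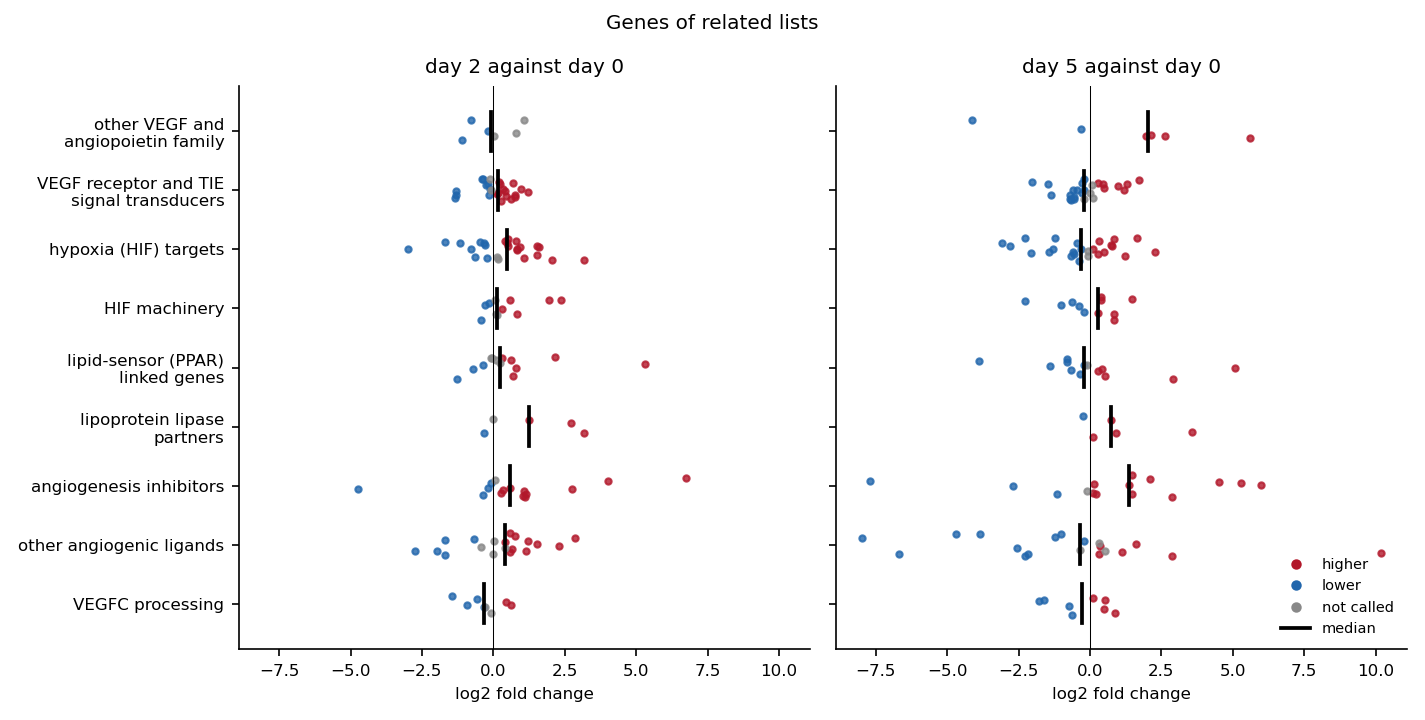
Log2 fold change of every tested gene in 9 lists related to the VEGF and angiopoietin genes, at day 2 (left) and day 5 (right) against day 0; red and blue points were called higher and lower, grey points were not called, and black bars are list medians. The further family genes have a median of -0.07 at day 2 and 2.04 at day 5, and the hypoxia targets 0.49 and -0.32.

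Of 13 tested genes linked to the lipid sensors of the PPAR family, 6 were higher and 3 lower at day 2 against day 0 (median 0.23). At day 5 against day 0, 5 were higher and 7 lower (median -0.20, or 3 and 7 without TMM factors). Beside these and the counts below stand 33.4% higher and 33.4% lower of all genes at day 2, and 35.8% and 34.1% at day 5. The lipid droplet protein PLIN2 was, like ANGPTL4, highest at day 2, with 123 and 122 CPM (day 0), 547 and 533 CPM (day 2), and 47.9 and 44.5 CPM (day 5). At day 5 PLIN2 lay further below its day 0 level than ANGPTL4 did (log2 -1.41 and -0.26). PDK4, an inhibitory kinase of pyruvate dehydrogenase, also was highest at day 2, at 2671 and 2643 CPM, and remained above day 0 at day 5 (518 and 502 CPM, against 69.2 and 66.7 CPM at day 0). The coactivator PPARGC1A differed in having 44.1 and 45.2 CPM at day 5, against 1.54 and 1.13 CPM at day 0. Of 14 genes listed around lipoprotein lipase, on which ANGPTL4 acts, only 5 had enough counts to be tested. Of these 5, 3 were higher and 1 lower at day 2 (median 1.24, or 3 and 2 without TMM factors). At day 5, 4 were higher and 1 lower (median 0.73, or 3 and 2 without TMM factors). The tested genes included VLDLR, a lipoprotein receptor, which was 9.02-fold higher at day 2. They also included the endothelial lipase LIPG, which was 11.9-fold higher at day 5 than at day 0.

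Other regulators of vessel growth differed between lists, and more genes of the angiogenesis inhibitor list were called higher than lower on both days. Of all tested genes, 33.4% were higher and 33.4% lower at day 2, and 35.8% and 34.1% at day 5, each against day 0. Of 19 tested angiogenic ligands of other families, 10 were higher and 5 lower at day 2 against day 0 (median 0.40; 10 and 7 without TMM factors), and 6 higher and 10 lower at day 5 against day 0 (median -0.35). HGF, the ligand of the receptor MET, was 4.96-fold higher at day 2 and 7.33-fold higher at day 5 than at day 0, and CCN2, a matricellular protein, 1.58-fold and 3.02-fold. The chemokine CXCL8 was 7.28-fold higher at day 2 and 2.35-fold lower at day 5, and CCN1, a relative of CCN2, was 14.5-fold lower at day 5. Of 15 tested genes listed as angiogenesis inhibitors, 10 were higher and 4 lower at day 2 (median 0.57, or 9 and 5 without TMM factors). At day 5, 11 were higher and 3 lower (median 1.37, or 8 and 6 without TMM factors). These counts include 2 genes that are not established inhibitors. CHM, which encodes a Rab escort protein, was called higher at day 2 (log2 0.57, the list median) and not called at day 5. VASH2, reported to promote vessel growth, was called higher on both days (log2 2.76 and 5.27). TIMP3, a metalloprotease inhibitor that also blocks VEGF binding to KDR, was 22.9-fold higher at day 5 than at day 0, at 6235 and 6202 CPM, against 269 and 275 CPM. THBS2 was 63.7-fold higher at day 5, while its relative THBS1 was 6.46-fold lower and PTX3, a pentraxin that binds fibroblast growth factor, 211-fold lower.

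Genes that act on VEGFC protein and downstream of the receptors were mixed. The shares over all tested genes were 33.4% higher and 33.4% lower at day 2, and 35.8% and 34.1% at day 5, each against day 0. Of 8 tested genes of VEGFC processing, 2 were higher and 4 lower at day 2 against day 0 (median -0.33; 2 and 5 without TMM factors) and 4 higher and 4 lower at day 5 (median -0.27; 2 and 5 without TMM factors). CCBE1, a cofactor of VEGFC cleavage, was 2.74-fold lower at day 2 and 1.42-fold higher at day 5 than at day 0, and the protease ADAMTS2 was 3.45-fold lower at day 5. Of 25 tested signal transducers of VEGF receptors and TEK, 14 were higher and 9 lower at day 2 (median 0.18; 8 and 11 without TMM factors), and 7 higher and 14 lower at day 5 against day 0 (median -0.22). The focal adhesion adaptor PXN was 2.77-fold and the endocytic adaptor DAB2 4.13-fold lower at day 5 than at day 0, and protein kinase C alpha, PRKCA, was 2.28-fold higher.

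Since KDR, TEK and VEGFD are best known from vessels, markers of vascular cells were examined beside them. For the marker lists too, 33.4% of all genes were higher and 33.4% lower at day 2, and 35.8% and 34.1% at day 5. Of 15 endothelial markers 5 were tested, with 1 higher and 1 lower at day 2 and 1 higher and 3 lower at day 5 against day 0. Their summed level was 16.4 to 19.1 CPM at day 0, 20.1 CPM in both day 2 libraries and 13.8 to 16.3 CPM at day 5. EMCN, PLVAP and SOX17 were at 0 in every library, the endothelial cadherin CDH5 and the transcription factor ERG had 1 count each over all 6 libraries, and PECAM1 had 0 and 4 counts on day 0, none on day 2 (0 in each library), and 9 and 7 on day 5. The tight junction gene CLDN5 was the marker that rose, to 145 and 136 counts at day 5, against 1 and 6 counts at day 0, and EGFL7, which made up most of the sum at day 0, was 2.80-fold lower at day 5.

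Of 8 pericyte markers 6 were tested, with 1 higher and 4 lower at day 2 and 1 higher and 3 lower at day 5 against day 0. Their summed level was 868 to 892 CPM at day 0, 514 to 534 CPM at day 2 and 863 to 873 CPM at day 5, and COX4I2 was at 0. RGS5, a regulator of G protein signalling, was 63.6-fold higher at day 5, at 428 and 422 CPM, against 6.78 and 6.59 CPM at day 0, while MCAM was 5.95-fold lower. Fibroblast markers were split, with 6 higher and 6 lower at day 5 against day 0: PDGFRA was 7.91-fold higher, COL1A1 1.15-fold lower and the proteoglycan DCN 5.16-fold lower. The part of these endothelial and pericyte markers in the results above was not tested.

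The genes most like 3 of the members in course were sought among 10648 genes of at least 5 CPM on average, by the Euclidean distance of log2 CPM profiles over the 6 libraries, each centred on its mean. Nearest to VEGFA were IL1R1 (distance 0.180 log2 units), the interleukin-1 receptor, with means of 139, 469 and 1137 CPM at day 0, 2 and 5, then ITPRIP (0.183) and STOX2 (0.210). Nearest to ANGPTL4 were PDK1 (0.207), a kinase related to PDK4, with means of 11.5, 47.6 and 10.9 CPM, then MMS22L (0.219) and the collagenase MMP1 (0.219). Nearest to TEK, the most abundant receptor gene of the set in CPM, were COX5A (0.0415) and ADSS2 (0.0622), both of which varied little. With 6 libraries in 3 days, such likeness describes the course over the days only.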

How the data were processed

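Poly-D-lysine cultures of BJ cells were sampled at 3 time points and RNA was sequenced from 2 libraries each. Per the labels' protocols, TRIzol was used for total RNA, genomic DNA was digested, and libraries followed Illumina's TruSeq procedure. The authors deposited expected counts per gene, estimated counts not scaled between libraries, of which 87.2% of values were whole, and a gene length. Reads were placed on GRCh38 (per the submitters' processing notes), while aligner, counter and strand handling are not given in the sources used here. Columns with the authors' means per day were not used.

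Genes without a name (172, at most 0.0475% of counts) were left out, and counts were rounded. All 6 libraries entered 1 edgeR 4.0.16 fit (R 4.3.3) by day, with TMM factors, filterByExpr (minimum count 10, minimum total 15) and quasi-likelihood tests, two-sided, adjusted by Benjamini-Hochberg over 16327 genes and called under 0.05. The standard error is the log2 fold change divided by the root of F. The steps were tested on simulated data. Coordinates and exon unions came from GENCODE 29. The members and the 16 lists were chosen with earlier results of these data known, and lists are described by counts and medians without a test. Named genes are the members, the family list, up to 3 genes of lowest adjusted p per list at day 2 and at day 5 against day 0, the nearest profiles and overlapping genes, of which not all are printed. PECAM1, CDH5, ERG and other markers with few counts were named after their values were seen. Alternatives were DESeq2 1.42.0, limma-voom (limma 3.58.1), other scalings and filters, pairwise fits, a replicate block, glmTreat and leaving out each library.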

Additional observations from a re-analysis of the deposited data

How the results depend on the processing

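Over the alternatives, PGF, VEGFA and KDR kept their direction in each of the 3 comparisons, as did FLT1 and ANGPTL4, and VEGFC at day 2 and day 5 against day 0. Among all values of single members under the alternatives, 377 kept direction and call, 22 lost the call, 1 gained it and 2 turned. Testing for changes above 2-fold left 3 members higher for day 2 over day 0, 2 lower for day 5 over day 0 and 1 lower for day 5 over day 2. The stricter filter removed FLT1 and left 1 member lower for day 2 over day 0. The other 86 of 90 counts of members stayed within 1.5 times the reported ones, and leaving out single libraries gave 5 to 6 higher and 2 lower for day 2 over day 0, 4 and 4 for day 5 over day 0, and 3 and 2 for day 5 over day 2. Without TMM factors TEK turned to -0.035 for day 2 and -0.124 for day 5 over day 0, and for day 2 over day 0 NRP2 turned to -0.149 and CCN1 to -0.166 (log2 fold changes; NRP2 0.04 and CCN1 0.02 as reported, neither called). The cause was not tested. The GENCODE exon unions, used beside the deposited lengths for levels per kilobase, were chosen as an alternative after seeing the data. Replicate numbers are shared between days, and deviations of same-numbered libraries correlated at 0.00269, -0.00241 and -0.00503. This check cannot exclude that same-numbered libraries share a culture or batch. The main fit treated them as unpaired. With the replicate number as a block, 6 members were higher and 2 lower for day 2 over day 0, 4 and 4 for day 5 over day 0, and 3 and 2 for day 5 over day 2, where FLT1 lost its call. Depth limits FLT1 at day 5 and ANGPT2 on every day.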

Other observations

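Markers of other cell types were low or carried by few genes. Among 6 lymphatic endothelial markers, CCL21 was at 0 and LYVE1 had at most 2 counts in a library. The summed level of this list was 133 to 135 CPM at day 0, nearly all of it RELN, 23.3 to 26.7 CPM at day 2 and 10.0 to 13.0 CPM at day 5, and of 3 tested markers 2 rose by day 5 (PROX1 and PDPN) and 1 fell (RELN). Of 8 macrophage markers 3 were tested and were lower at day 5 than at day 0, with sums of 45.7 to 49.7 CPM at day 5 and 97.8 to 98.9 CPM at day 0, mostly CD68, a lysosomal protein also made by fibroblasts. Among 8 keratinocyte markers KRT5, KRT14, KRT1 and TP63 were at 0, and KRT10 was the 1 tested, higher at day 5. Of the neuron markers 4 were tested, of which SNAP25 rose, TUBB3 and MAP2 fell and SYN1 was not called at day 5 against day 0. Their summed level was 242 to 251 CPM at day 0, 149 to 156 CPM at day 2 and 106 to 111 CPM at day 5, most of it TUBB3.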
